A study of Mus musculus with 18 samples.

Results

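The enzymes of haem biosynthesis were described through 8 genes, Alas1, Alas2, Alad, Uros, Urod, Cpox, Ppox and Fech, picked by symbol from the 22787 genes of the deposited table, which held all 8. The series profiled RNA of 18 mouse samples by SmartSeq2, a method for small amounts of RNA, to ask how the kinase complex mTORC1 shapes gene expression in myeloid progenitors. In 12 samples the RNA came from granulocyte-monocyte progenitors (GMPs), the marrow cells that give rise to neutrophils and monocytes, sorted at 10000 cells per sample as c-kit+, Sca-1-, CD127-, FcγRII/III+, CD135- cells with low CD34 and low Ly6C. The other 6 samples were DR-ER-Hoxb8 cells, an immortalized line of myeloid progenitors that estradiol holds immature, which had differentiated for 3 days in medium with stem cell factor and without estradiol.

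The GMPs formed 4 groups of 3 libraries each. Raptor KO GMPs are labelled as a knockout of Raptor, the subunit that defines mTORC1 (gene Rptor), and were set against Raptor fl/fl GMPs, which carry the floxed allele. Tsc2 KO GMPs are titled as a knockout of Tsc2, part of the complex that keeps mTORC1 inactive, and were set against Tsc2 fl/fl GMPs. The sources used here give neither the Cre driver nor the age of the mice, nor whether a library held 1 animal. The Hoxb8 cells formed 3 groups of 2 libraries each, with rapamycin, an inhibitor of mTORC1, at 100 nM, with SL0101-01, an inhibitor of the RSK kinases, at 10 nM, or with the solvent DMSO. Because the labels do not say that replicates were separate animals or cultures, the p-values measure the spread between these libraries, which may be technical. This spread was estimated for each gene over all groups of a fit. A comparison within 1 GMP line therefore also draws on the spread of the other line.

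Haem is the iron porphyrin that carries oxygen in haemoglobin and serves the cytochromes, catalase, myeloperoxidase and the NADPH oxidase of phagocytes. Its synthesis starts in the mitochondrion, where an aminolevulinate synthase joins glycine to succinyl-CoA, goes through cytosolic steps, and ends in the mitochondrion with the insertion of iron. Alas1 encodes the synthase found in most cells, which haem holds down in the liver, and Alas2 on the X chromosome encodes the erythroid form, so that marrow holds cells of either kind.

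For Alas1, Alas2, Urod and Cpox the 250 bases before the first listed transcript start are printed here, because Alas1 and Alas2 encode the same step with different patterns across the groups and Urod and Cpox were among 5 enzymes that shared 1 order of group means. The sequences are those of RefSeq on GRCm38.p6, 5′ to 3′ on the strand of the gene. Capitals mark, on either strand, the core letters that GATA factors such as the erythroid GATA1 bind, which read AGATAA with T allowed as the first letter and G as the last, or the E-box letters CACGTG.
Alas1, chr9:106247955-106248204, minus strand: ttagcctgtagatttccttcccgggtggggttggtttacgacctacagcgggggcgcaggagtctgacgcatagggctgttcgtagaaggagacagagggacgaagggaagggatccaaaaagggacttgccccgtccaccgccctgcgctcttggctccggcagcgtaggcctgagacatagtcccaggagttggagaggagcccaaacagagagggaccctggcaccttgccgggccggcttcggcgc
Alas2, chrX:150547167-150547416, plus strand: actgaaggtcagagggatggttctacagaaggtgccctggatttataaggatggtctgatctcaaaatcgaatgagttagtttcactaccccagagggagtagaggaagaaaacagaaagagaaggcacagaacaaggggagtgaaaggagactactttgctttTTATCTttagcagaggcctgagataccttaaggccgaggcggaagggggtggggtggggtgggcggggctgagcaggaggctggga
Urod, chr4:116994414-116994663, minus strand: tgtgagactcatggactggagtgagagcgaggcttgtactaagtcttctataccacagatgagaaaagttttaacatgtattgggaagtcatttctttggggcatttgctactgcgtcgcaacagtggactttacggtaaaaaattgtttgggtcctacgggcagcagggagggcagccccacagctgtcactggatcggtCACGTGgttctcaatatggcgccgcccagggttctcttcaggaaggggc
Cpox, chr16:58669958-58670207, plus strand: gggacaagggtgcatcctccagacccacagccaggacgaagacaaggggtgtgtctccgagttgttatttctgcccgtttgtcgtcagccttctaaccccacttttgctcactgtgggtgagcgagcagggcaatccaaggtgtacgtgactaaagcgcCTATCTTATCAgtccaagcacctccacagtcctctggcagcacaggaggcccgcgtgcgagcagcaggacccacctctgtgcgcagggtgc

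Windows from 250 bases before to 50 after a start were searched for 7 of the 8 genes, 10 windows in all. GATA letters stood in 29.8% and CACGTG in 7.15% of the 32851 RefSeq windows of that length. GATA letters were found in the windows of Alas2, Cpox and the second start of Uros. Cpox had 3 matches, of which the neighbours at positions -91 and -86 from the start overlap and the third lies just after the start, and Alas2 had 1, at -86. The letters CACGTG were found in Urod at -49, in the windows of both Alad starts and at the far edge of the first Uros window. Alas1 and Ppox held neither. A match describes these letters only and names no bound site.

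The libraries held 2.48 M to 3.52 M fragments in GMPs and 2.31 M to 3.30 M in Hoxb8 cells (M for mega). Levels are given as normalized fragments, the fragments counted for a gene divided by a size factor of its library, and differences as log2 of the value plus 1, which understates changes of genes near 0. All adjusted p-values come from limma and cover all genes tested in a comparison, and a gene is called when its adjusted p is under 0.05. Tsc2 was lower in Tsc2 KO than in Tsc2 fl/fl GMPs (95.1 ± 10.8 against 248 ± 18.0, SD, n = 3 each, limma adjusted p = 1.7e-04), while the difference of Rptor between Raptor KO and Raptor fl/fl GMPs did not pass (63.3 ± 5.61 against 84.5 ± 5.11, SD, n = 3 each, limma adjusted p = 0.377). The deleted part of Rptor is not stated, so this level over the whole gene does not show the deletion, and Raptor KO is used as the label throughout. All GMP libraries held erythroid transcripts. The sum of 23 erythroid marker genes ranged from 2410 to 3014 in Raptor KO and from 5307 to 5820 in Raptor fl/fl, and from 15816 to 32175 in Tsc2 KO and from 3839 to 14216 in Tsc2 fl/fl. The sum of 14 GMP marker genes ranged from 65172 to 67949 in Raptor KO and from 71646 to 82443 in Raptor fl/fl, and from 8899 to 41148 in Tsc2 KO and from 37501 to 84053 in Tsc2 fl/fl. A few abundant genes weigh most in these sums. In Raptor fl/fl the erythroid markers Car1 and Car2 averaged 1319.5 ± 188 and 1690 ± 111, and the GMP marker Mpo averaged 46584 ± 2240 (SD, n = 3 each). In Hoxb8 cells the erythroid sum lay between 41.5 and 91.0, with 10 to 15 of the 23 genes at 0 in every library of a group. Sums of B cell markers (8 genes) were lower in both knockouts, at 106 to 148 in Raptor KO against 740.3 to 1067 in Raptor fl/fl and at 20.7 to 74.2 in Tsc2 KO against 328 to 539 in Tsc2 fl/fl. Macrophage markers (9 genes) summed to 368 to 945 in Raptor KO against 141 to 222 in Raptor fl/fl and to 486 to 735 in Tsc2 KO against 20.3 to 92.8 in Tsc2 fl/fl. Megakaryocyte markers (7 genes) summed to 431 to 475 in Raptor KO against 1056 to 1294 in Raptor fl/fl and to 162 to 182 in Tsc2 KO against 386 to 781 in Tsc2 fl/fl. In bulk samples, fewer cells of a type and less RNA per cell cannot be told apart.

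Across the 7 groups the genes of the first step had their highest levels in different cells. Alas1 averaged 578 ± 35.3 in Raptor KO and 681 ± 7.41 in Raptor fl/fl GMPs, 223 ± 118 in Tsc2 KO and 574 ± 108 in Tsc2 fl/fl GMPs (SD, n = 3 each), and 2008 ± 178 with rapamycin, 1849 ± 36.9 with SL0101-01 and 1289.6 ± 69.5 with DMSO in Hoxb8 cells (SD, n = 2 each). Its order by mean was rapamycin, SL0101-01 and DMSO, then Raptor fl/fl and Raptor KO GMPs, then those of Tsc2 fl/fl and last of Tsc2 KO, and of these neighbours only Raptor KO and Tsc2 fl/fl overlapped. Alas2 averaged 6.04 ± 1.39 in Raptor KO and 48.6 ± 3.76 in Raptor fl/fl, and 30.4 ± 7.69 in Tsc2 KO and 29.6 ± 15.4 in Tsc2 fl/fl (SD, n = 3 each). In Hoxb8 cells no library held more than 2 Alas2 fragments, so that these 3 groups overlapped and no fold between them is given. Over 311 of its 2037 exonic bases Alas2 overlaps the DNA repair gene Apex2 on the opposite strand (GENCODE vM21), and the sources do not state whether the counting used strand. Apex2 itself was at 19.5 to 55.7 in every one of the 18 libraries and was not called in either knockout. An antisense RNA covers 465 exonic bases of Alas1, and the other 6 genes share no exonic bases with an annotated gene.

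Of the remaining 6 enzymes, 5 shared 1 order of group means among the GMPs. Alad, Uros, Urod, Cpox and Fech were highest in Tsc2 KO, followed by Tsc2 fl/fl, Raptor fl/fl and Raptor KO. Tsc2 KO and Tsc2 fl/fl overlapped for Alad, Uros and Cpox and not for Urod and Fech, Tsc2 fl/fl and Raptor fl/fl overlapped for all but Cpox, and Raptor fl/fl and Raptor KO overlapped only for Cpox. In Hoxb8 cells Alad, Uros, Urod and Cpox lay below every GMP group mean, whereas Fech with SL0101-01 lay between Raptor fl/fl and Raptor KO. Ppox had the narrowest span of the 8 genes, with group means from 68.1 ± 5.82 in Tsc2 fl/fl GMPs (SD, n = 3) to 120.0 ± 6.58 with rapamycin (SD, n = 2), and its neighbours in that order overlapped except DMSO and SL0101-01.

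**Figure D1:**
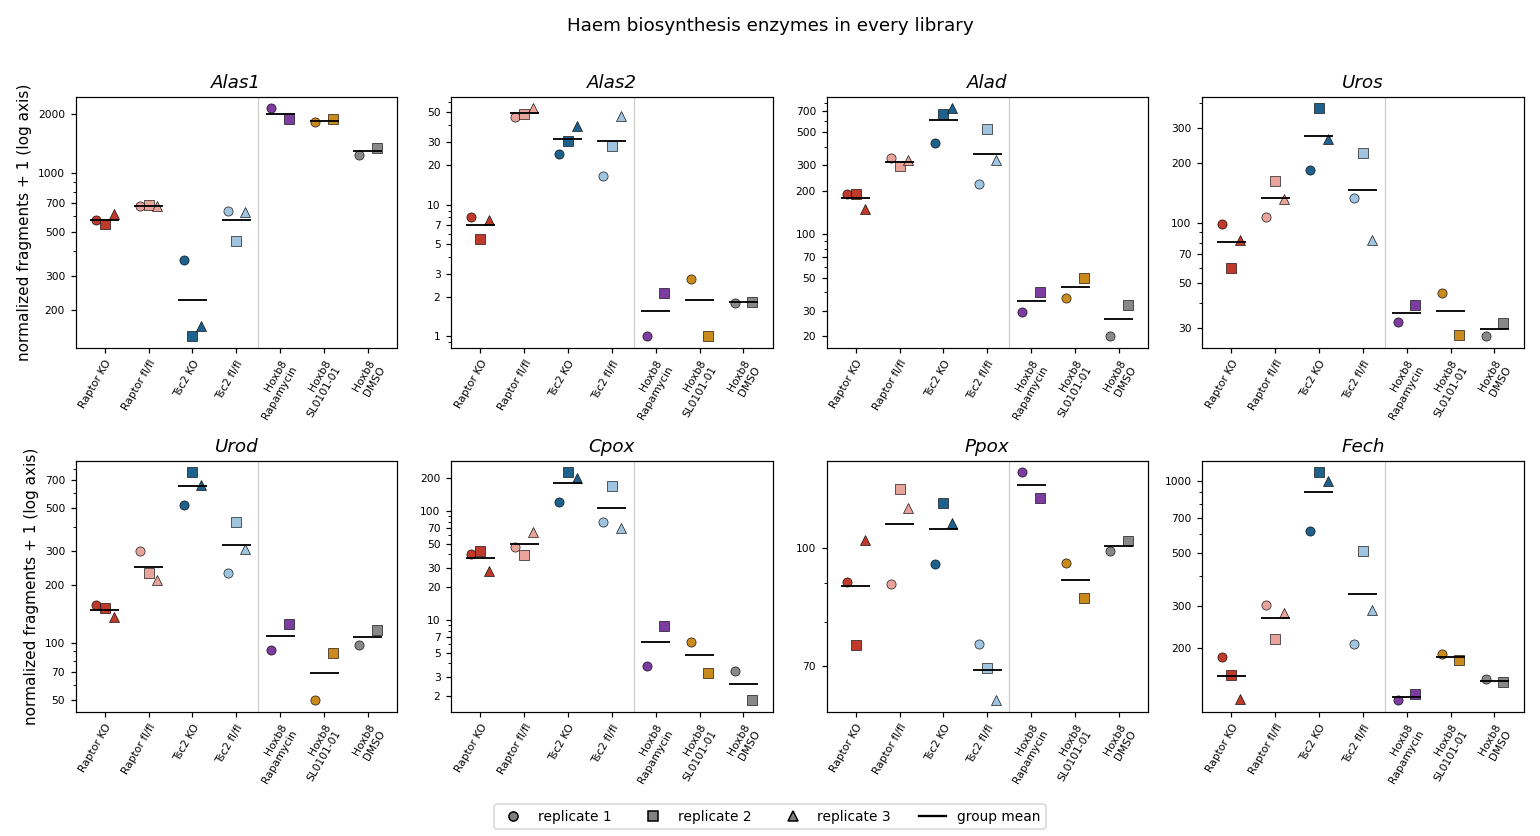
Levels of the 8 enzyme genes in each of the 18 libraries, as normalized fragments plus 1 on a log axis, by group. Points are libraries, their shape gives the replicate number and black lines are group means. Alas1 is highest in the 3 Hoxb8 groups, where Alas2 and Cpox are near 0, and Alas2 is lowest among GMPs in Raptor KO.

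Divided by the length of the longest annotated transcript, Alas1 ranked first of the 8 in Raptor KO at 169.9 ± 10.4 normalized fragments per kb, and second in Raptor fl/fl at 200.2 ± 2.18 (SD, n = 3 each). In Tsc2 KO its rank was 5, at 65.7 ± 34.7, against rank 3 in Tsc2 fl/fl at 169 ± 31.7 (SD, n = 3 each). Alad ranked first in Tsc2 KO at 487 ± 130.3 per kb, as it did in Tsc2 fl/fl at 285 ± 125. These ranks hold for the longest transcript only and depend on the length taken. That length is 6571 bases for Fech, of which 1266 are coding, against 1247 and 990 for Alad. Ranks per kb of coding length were not made. The ratio of Alas1 to Alas2 per kb was 48.4 to 73.3 in Raptor KO libraries against 7.67 to 8.93 in Raptor fl/fl, and 2.57 to 9.28 in Tsc2 KO against 8.21 to 24.6 in Tsc2 fl/fl. The ranges did not overlap in the Raptor line and overlapped in the Tsc2 line. Per kb of coding length the ratios were higher, at 73.9 to 112 in Raptor KO against 11.7 to 13.6 in Raptor fl/fl, and again without overlap.

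The Raptor comparison asked what knockout of mTORC1's defining subunit changes in GMPs. Alas2 fell steeply and Urod fell, and the other 6 enzymes had lower means in Raptor KO without passing the test. Of the 8 genes 2 were called lower and 0 higher, where 3.94% of the 13237 genes tested were called, 2.42% lower and 1.53% higher. All 8 log2 differences were negative, with a median of -0.74 against 0.03 for all genes tested, and 47.1% of all genes were negative. For 6 of the 8 every Raptor KO library lay below every Raptor fl/fl library, which held for 13.1% of all genes.

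In the first step, Alas2 had 7.07, 4.46 and 6.58 normalized fragments in the Raptor KO libraries, against 45.5, 47.5 and 52.7 in Raptor fl/fl. The groups stood far apart, on 6 to 10 fragments in each KO library and 61 to 65 in each control. The log2 difference was -2.83 (95% interval -3.67 to -2.00, limma adjusted p = 6.6e-04), and it was called in all 8 other settings and without any 1 library. Alas1 had 572, 546 and 615 in Raptor KO, against 677, 689 and 675 in Raptor fl/fl. Every KO library was below the controls, but the log2 difference of -0.24 did not pass (95% interval -0.80 to 0.33, limma adjusted p = 0.68).

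In the cytosolic steps, Urod, which removes carboxyl groups from uroporphyrinogen, had 155, 150.1 and 135 in Raptor KO, against 298, 229 and 210.2 in Raptor fl/fl. All KO libraries were lower, with a log2 difference of -0.73 (95% interval -1.15 to -0.30, limma adjusted p = 0.0493). This call rests just inside the threshold. It was lost without any 1 of the 6 libraries of the Raptor line (limma adjusted p = 0.0677 to 0.198) and with 4 of the 8 other settings. Alad, which joins aminolevulinate into porphobilinogen, had 189.6, 188 and 148 in Raptor KO, against 333, 292 and 321 in Raptor fl/fl (log2 difference -0.85, limma adjusted p = 0.091). Uros, which closes the porphyrin ring, had 98.3, 58.7 and 81.7 in Raptor KO, against 107, 163 and 131 in Raptor fl/fl (log2 difference -0.75, limma adjusted p = 0.243). Neither passed, although the libraries did not overlap for either gene, and fitted on the Raptor line alone both did (limma adjusted p = 6.3e-04 and 0.0336).

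In the late mitochondrial steps no gene was called. Fech, the ferrochelatase that inserts the iron, had 181, 152 and 120.3 in Raptor KO, against 302, 216 and 279 in Raptor fl/fl (log2 difference -0.81, limma adjusted p = 0.162), without overlap. Fitted on the Raptor line alone, Fech passed (limma adjusted p = 0.0041). Cpox, which converts coproporphyrinogen, had 39.6, 41.6 and 27.2 in Raptor KO, against 46.2, 38.1 and 63.3 in Raptor fl/fl (log2 difference -0.43, limma adjusted p = 0.524). Ppox, which oxidizes protoporphyrinogen, had 89.1, 73.6 and 101 in Raptor KO, against 88.7, 118 and 112 in Raptor fl/fl (log2 difference -0.27, limma adjusted p = 0.515). For Cpox and Ppox the groups overlapped.

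The erythroid markers moved beside these enzymes. Of the 23 markers 7 were called lower and 0 higher in Raptor KO, with a median log2 difference of -1.31, and their sum was lower in all 3 KO libraries. Of the 14 GMP markers 1 was called higher and 0 lower (median -0.07). The part of either in the enzyme differences was not tested.

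The Tsc2 knockout asked the opposite question, what release of mTORC1 changes. Fech and Urod rose and Alas1 fell, while Alas2 had nearly equal means in both groups. Of the 8 genes 2 were called higher and 1 lower, where 5.26% of the 13237 genes tested were called higher and 7.12% lower. Of the log2 differences 7 were positive (48.4% of all genes) and the median was 0.83 against -0.02 for all genes. Libraries did not overlap for Urod, Ppox and Fech, which were higher (14.6% of all genes), and for Alas1, which was lower (13.3% of all genes).

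In the first step the synthase genes parted. Alas1 had 359, 146 and 165 in Tsc2 KO, against 642, 450.1 and 631 in Tsc2 fl/fl. Every KO library was below the controls, with a log2 difference of -1.46 (95% interval -2.03 to -0.90, limma adjusted p = 0.0040). Alas2 had 23.2, 29.6 and 38.5 in Tsc2 KO, against 15.6, 27.1 and 46.1 in Tsc2 fl/fl. The KO libraries lay within the span of the controls, and the log2 difference of 0.14 did not pass (95% interval -0.69 to 0.97, limma adjusted p = 0.871).

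In the cytosolic steps Urod had 519, 768 and 657 in Tsc2 KO, against 229.8, 422 and 306 in Tsc2 fl/fl. The groups did not overlap, and the log2 difference was 1.04 (95% interval 0.62 to 1.47, limma adjusted p = 0.0031), called in all 10 other settings and without any 1 library. Alad had 424, 668 and 731 in Tsc2 KO, against 219, 525 and 322 in Tsc2 fl/fl (log2 difference 0.83, limma adjusted p = 0.0578). Uros had 185, 377 and 263 in Tsc2 KO, against 133, 223 and 81.8 in Tsc2 fl/fl (log2 difference 0.97, limma adjusted p = 0.0756). Both overlapped because replicate 1 of Tsc2 KO was below replicate 2 of Tsc2 fl/fl.

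In the late steps Fech had 617, 1090.1 and 998 in Tsc2 KO, against 207, 510.2 and 288 in Tsc2 fl/fl. All KO libraries were higher, with a log2 difference of 1.48 (95% interval 0.82 to 2.15, limma adjusted p = 0.0093). Cpox had 119, 226 and 199 in Tsc2 KO, against 78.0, 168 and 69.6 in Tsc2 fl/fl (log2 difference 0.84, limma adjusted p = 0.101). Ppox had 94.1, 113 and 107 in Tsc2 KO, against 73.7, 68.5 and 62.1 in Tsc2 fl/fl (log2 difference 0.61, limma adjusted p = 0.0558). Cpox overlapped between the groups and Ppox did not.

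Single libraries decided how many enzymes passed in the Tsc2 line. Replicate 2 of Tsc2 fl/fl was the highest of its group for Alad, Uros, Urod, Cpox and Fech and the lowest for Alas1, and also had the group's highest erythroid sum (14216) and lowest GMP marker sum (37501). Replicate 1 of Tsc2 KO was the lowest of its group for every enzyme but Alas1, for which it was the highest, with the group's lowest erythroid sum (15816) and highest GMP marker sum (41148). Without Tsc2 fl/fl replicate 2, Alad, Uros and Cpox passed as well (log2 differences 1.15, 1.33 and 1.24, limma adjusted p = 0.0017, 0.0065 and 0.0105), and 6 enzymes were called. Without Tsc2 KO replicate 1 all but Alas2 were called, 7 in all. Replicate 2 of each Tsc2 group was male by Y-linked transcripts and the other GMP libraries were female. With a term for sex 7 enzymes were called, and without both male libraries 5. Fitted on the Tsc2 line alone, Urod kept its call while Alas1 and Fech lost theirs (limma adjusted p = 0.0562 and 0.0647).

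Among the markers, 9 of 23 erythroid genes were called higher and 0 lower in Tsc2 KO (median log2 difference 1.52), and 6 of 14 GMP genes lower and 0 higher (median -1.64). The plot of enzymes beside marker sums shows each library. Fech was lowest in the 3 Raptor KO libraries, which had the lowest erythroid sums, and highest in the 3 Tsc2 KO libraries, which had the highest. Alas2 was also lowest in the 3 Raptor KO libraries but did not follow this order at the top. Its 3 highest libraries were 2 of Raptor fl/fl and 1 of Tsc2 fl/fl, with erythroid sums below those of Tsc2 KO. Single markers need not follow the sum, in which Car1 and Car2 averaged 6800 ± 2372 and 9742 ± 3110 in Tsc2 KO. The beta globin markers Hbb-b1 and Hbb-b2 averaged 109 ± 31.2 and 51.0 ± 6.22 in Raptor fl/fl. In Tsc2 KO they averaged 97.5 ± 56.6 and 44.3 ± 18.4 (SD, n = 3 each). Alas1 lay lowest in the 2 Tsc2 KO libraries with the lowest GMP marker sums. The part of the markers in these differences was not tested.

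**Figure D2:**
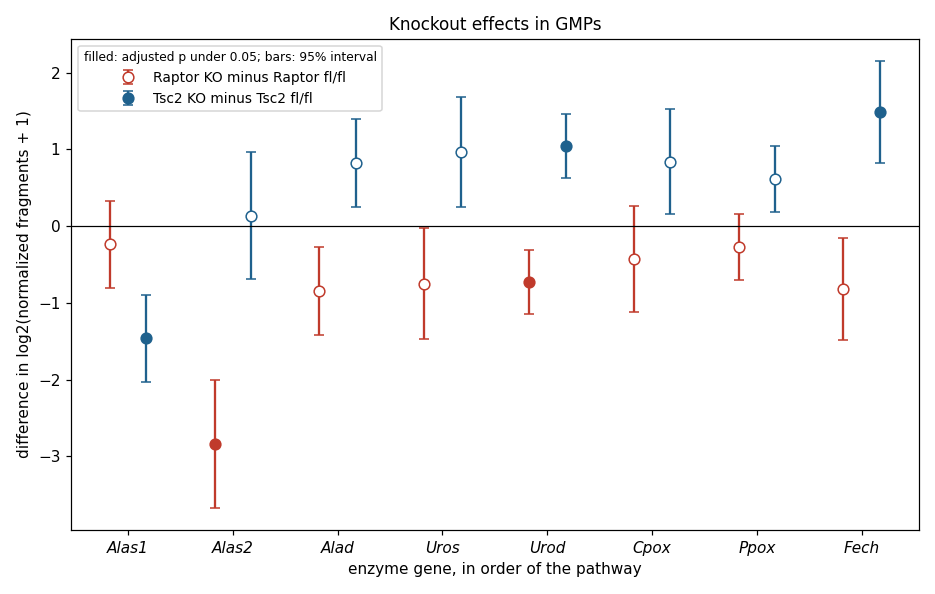
Differences in log2 of normalized fragments plus 1 between Raptor KO and Raptor fl/fl GMPs and between Tsc2 KO and Tsc2 fl/fl GMPs for the 8 enzymes (n = 3 libraries in each group). Points are limma estimates, bars are 95% intervals and filled points have an adjusted p under 0.05. All Raptor KO estimates are below 0, and 7 of the 8 Tsc2 KO estimates, all but Alas1, are above 0.

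**Figure D3:**
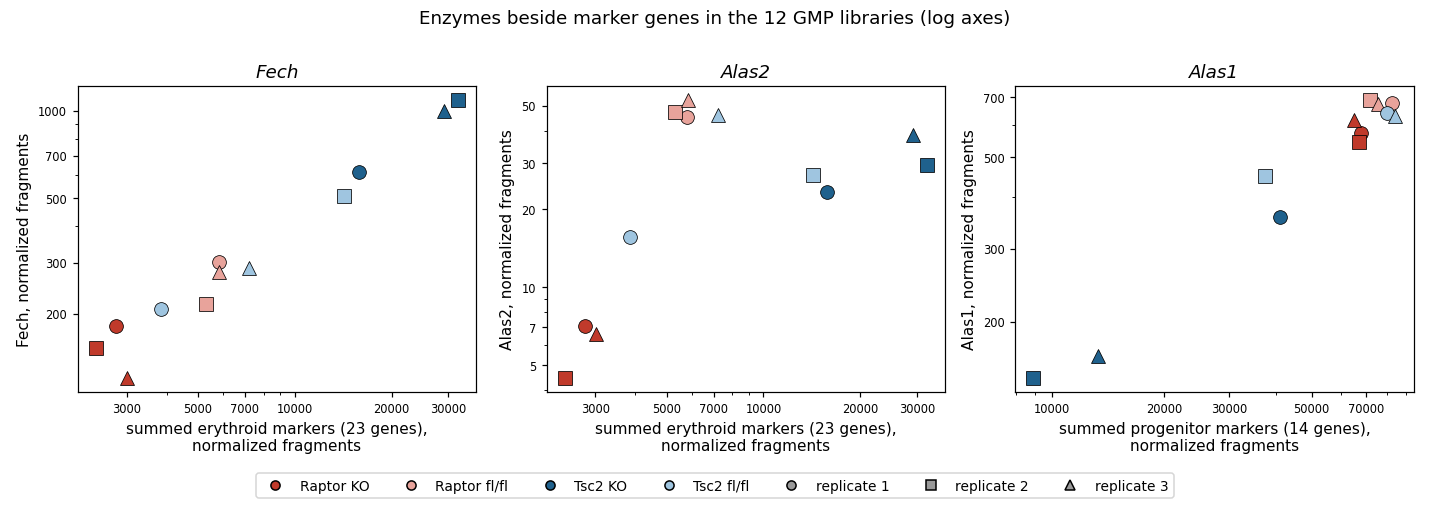
Levels of Fech and Alas2 against the sum of 23 erythroid markers, and of Alas1 against the sum of 14 GMP markers, in the 12 GMP libraries, all in normalized fragments on log axes. Colours give the group and shapes the replicate number. The Tsc2 fl/fl replicate 2 and Tsc2 KO replicate 1 libraries lie side by side in all 3 panels.

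The difference between the knockout effects was tested directly as the Raptor effect minus the Tsc2 effect. It passed for 6 of the 8 enzymes, 5 with a negative value and 1 with a positive one, where 6.44% and 5.99% of the 13237 genes tested were called in these directions. The value was -2.97 ± 0.56 for Alas2 (limma adjusted p = 0.0034), -2.30 ± 0.43 for Fech (0.0069) and -1.77 ± 0.28 for Urod (0.0011), with the standard error after each estimate. It was -1.72 ± 0.48 for Uros (limma adjusted p = 0.0316), -1.67 ± 0.38 for Alad (0.0126) and 1.22 ± 0.37 for Alas1 (0.0478). Cpox at -1.27 ± 0.46 (limma adjusted p = 0.0814) and Ppox at -0.88 ± 0.29 (0.0517) did not pass. The calls of Alas2, Fech, Urod and Alad held without any 1 of the 12 libraries, whereas that of Alas1 was lost in 10 of these 12 fits (limma adjusted p up to 0.116) and that of Uros in 8 (up to 0.0844). The same test called 16 of the 23 erythroid markers with a negative value (median -2.98), and their part was not tested.

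In Hoxb8 cells both inhibitors were set against the same DMSO libraries, so their values share those libraries. Alas1 rose with either compound, and no other enzyme passed. With rapamycin 1 of the 8 genes was called higher and 0 lower, where 5.4% of the 11804 genes tested were called higher and 6.35% lower, and with SL0101-01 the same counts stood against 5.09% and 5.79%. Alas1 had 2135 and 1882 normalized fragments with rapamycin and 1823 and 1875 with SL0101-01, against 1240.4 and 1339 with DMSO. All treated libraries were above both DMSO libraries. The log2 difference was 0.64 with rapamycin (95% interval 0.36 to 0.92, limma adjusted p = 0.0026) and 0.52 with SL0101-01 (0.24 to 0.80, limma adjusted p = 0.0146). Each group had 2 libraries: without DMSO replicate 1 the rapamycin call was lost (limma adjusted p = 0.078), and without any 1 library of DMSO or SL0101-01 the SL0101-01 call was lost (0.093 to 0.182), while the direction stayed.

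None of the cytosolic enzymes passed with either compound. Alad had 28.4 and 39.2 with rapamycin and 35.9 and 49.3 with SL0101-01, against 19.0 and 31.5 with DMSO. The log2 differences of 0.43 (limma adjusted p = 0.489) and 0.76 (0.181) did not pass. Urod had 90.7 and 123 with rapamycin and 49.0 and 87.1 with SL0101-01, against 96.4 and 115 with DMSO. Its log2 difference was 0.00 with rapamycin (95% interval -0.53 to 0.54, limma adjusted p = 0.996) and -0.68 with SL0101-01 (-1.22 to -0.14, limma adjusted p = 0.0992). Without SL0101-01 replicate 2 the difference of Urod passed, at -1.09 (limma adjusted p = 0.0247). Uros ranged from 26.5 to 43.7 in the treated libraries, against 26.1 and 30.7 with DMSO. Its log2 differences of 0.27 with rapamycin and 0.26 with SL0101-01 did not pass (limma adjusted p = 0.681 and 0.689).

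Of the late enzymes, Fech had 119 and 127 with rapamycin and 187 and 177 with SL0101-01, against 147 and 142 with DMSO. The libraries of each compound lay apart from DMSO, lower with rapamycin and higher with SL0101-01. Neither log2 difference passed, at -0.23 (95% interval -0.61 to 0.15, limma adjusted p = 0.479) and 0.33 (-0.05 to 0.71, limma adjusted p = 0.283). Ppox had 125 and 115 with rapamycin and 94.4 and 84.9 with SL0101-01, against 98.0 and 101 with DMSO (limma adjusted p = 0.476 and 0.702). Cpox rested on 1 to 7 fragments in each Hoxb8 library and was not called with either compound (limma adjusted p = 0.301 and 0.488). In all, 4 enzymes lay fully above DMSO with rapamycin (25.3% of all genes) and 1 fully below (27%), and with SL0101-01 3 above (26.6%) and 2 below (28.2%).

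**Figure D4:**
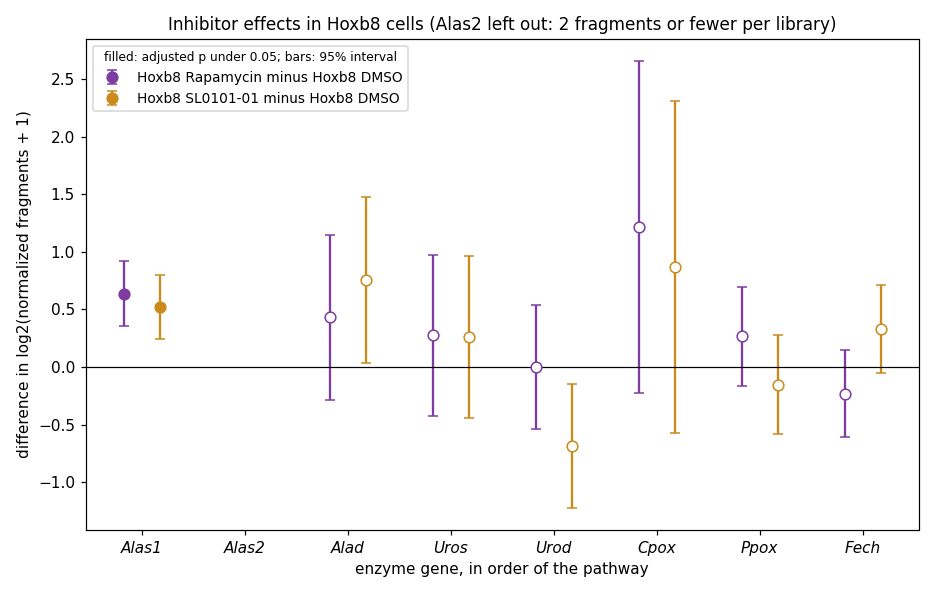
Differences in log2 of normalized fragments plus 1 between rapamycin and DMSO and between SL0101-01 and DMSO in Hoxb8 cells (n = 2 libraries in each group, the same DMSO libraries for both). Points are limma estimates, bars 95% intervals and filled points have an adjusted p under 0.05. Alas1 is the only enzyme with filled points, at 0.64 and 0.52.

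Rapamycin was also set against SL0101-01, at their different doses of 100 and 10 nM, in the fit that also held DMSO. None of the 8 enzymes was called, where 8.87% of the 11804 genes tested were, 4.43% higher and 4.44% lower with rapamycin. With a filter at a value of 5 or with voom weights 1 enzyme was called. With a replicate block, which called 1691 genes, 2 enzymes were called. The libraries lay apart for Alas1, Urod and Ppox, with higher values under rapamycin, and for Fech, with lower ones, as for 26.1% and 25.1% of all genes. An unadjusted p under 0.05 was reached by 2 enzymes, Fech, at -0.56 (95% interval -0.94 to -0.18, limma adjusted p = 0.057), and Urod, at 0.69 (0.15 to 1.22, limma adjusted p = 0.102). Fech passed with a filter at a value of 5 (limma adjusted p = 0.0488), with voom weights (0.0394) and with the block (0.0275). Urod passed with the block (limma adjusted p = 0.0279), and its log2 difference was 1.09 without SL0101-01 replicate 2. The interval for Alas1 ran from -0.16 to 0.40 around 0.12 (limma adjusted p = 0.656). In the same libraries the GMP marker sum was 62039 and 62753 with rapamycin and 28778 to 36219 with SL0101-01, against 15535 to 16837 with DMSO, and of its 14 genes 7 were called higher and 1 lower with rapamycin, and 5 higher and 1 lower with SL0101-01. Their part in the rise of Alas1 was not tested.

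DMSO-treated Hoxb8 cells at day 3 were set against the 6 floxed GMP libraries in a fit of all 18. Here cell source, sorting, culture and, for most libraries, sex differ together, and their parts cannot be told apart. By Y-linked transcripts the Hoxb8 libraries were male, and the floxed GMP libraries were female except Tsc2 fl/fl replicate 2. Alas1 was higher in Hoxb8 cells and 6 enzymes were lower, where 49.7% of the 14397 genes tested were called, 21.6% higher and 28.1% lower. All 7 lay apart from the GMP libraries, as did 23.2% of all genes with higher and 27.3% with lower values. The median of all genes was -0.15 on the log2 scale, that of the 8 enzymes -1.78. Alas1 averaged 1289.6 ± 69.5 in Hoxb8 cells (SD, n = 2) and 627 ± 89.7 in floxed GMPs (SD, n = 6), a log2 difference of 1.05 (limma adjusted p = 9.2e-04). Cpox had 4 fragments in both Hoxb8 libraries together and 554 in the floxed GMPs, a ratio of 0.0197 after division by library totals (95% exact counting interval 0.0054 to 0.0508). For Alas2 the counts were 2 and 288, a ratio of 0.0190 (0.0023 to 0.0692). These intervals cover counting error only.

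Among the others Alad averaged 25.2 ± 8.89 in Hoxb8 cells and 335 ± 102 in floxed GMPs (log2 difference -3.67, limma adjusted p = 3.6e-10). Uros averaged 28.4 ± 3.28 and Urod 106 ± 13.4 in Hoxb8 cells, against 139.8 ± 49.1 and 282 ± 79.0 in floxed GMPs, with log2 differences of -2.19 and -1.37 (limma adjusted p = 5.3e-06 and 2.5e-05). Fech fell least among the 6, at 144 ± 3.56 in Hoxb8 cells and 300.4 ± 110 in floxed GMPs (log2 difference -0.98, limma adjusted p = 0.0034). Ppox was at 99.6 ± 2.32 in Hoxb8 cells and 87.2 ± 23.4 in floxed GMPs, and its log2 difference of 0.23 did not pass (95% interval -0.15 to 0.61, limma adjusted p = 0.316). Of the 23 erythroid markers 22 were called lower in Hoxb8 cells, and their part was not tested.

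The floxed groups of both lines were compared to see how far the enzymes differed without a knockout. None of the 8 was called between Tsc2 fl/fl and Raptor fl/fl GMPs, where 0.604% of the 13237 genes tested were, and 2 had an unadjusted p under 0.05. These were Cpox, at 105 ± 54.7 in Tsc2 fl/fl and 49.2 ± 12.8 in Raptor fl/fl (log2 difference 1.00, limma adjusted p = 0.17), and Ppox, at 68.1 ± 5.82 in Tsc2 fl/fl and 106 ± 15.6 in Raptor fl/fl (log2 difference -0.63, limma adjusted p = 0.168). Alas2 differed by -0.82 (95% interval -1.65 to 0.01, limma adjusted p = 0.381). Libraries lay apart for Cpox, which was higher in Tsc2 fl/fl (8.18% of all genes), and for Alas1 and Ppox, which were lower (9.25%).

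Genes around the pathway were read from lists chosen with earlier results of these data known. Their counts stand against the shares of all genes called. These were 1.53% higher and 2.42% lower in Raptor KO and 5.26% and 7.12% in Tsc2 KO. They were 5.4% and 6.35% with rapamycin and 5.09% and 5.79% with SL0101-01. In Tsc2 KO and with either inhibitor, 1 call in a list of about 10 is near the background. In Raptor KO it lies above these shares but rests on 1 gene. Of 9 transporters of haem substrates and porphyrins, 1 fell in Raptor KO and 2 rose and 1 fell in Tsc2 KO. Tmem14c, which carries protoporphyrinogen into the mitochondrial matrix in erythroid cells, fell to 392 ± 43.0 in Raptor KO, against 785 ± 32.2 in Raptor fl/fl, and thus fell by 1.00 on the log2 scale (limma adjusted p = 0.0044). In the Tsc2 line it rose to 1603 ± 391 in Tsc2 KO, against 771 ± 184 in Tsc2 fl/fl (log2 difference 1.05, limma adjusted p = 0.0014). The porphyrin exporter Abcg2 rose in Tsc2 KO (log2 difference 0.90, limma adjusted p = 0.0231), and Slc25a37, the mitochondrial iron importer mitoferrin, fell (-0.79, limma adjusted p = 0.0078). With rapamycin 2 of 8 transporters tested rose and 2 fell, and with SL0101-01 1 rose and 0 fell. Abcb10, a mitochondrial partner of mitoferrin, rose with rapamycin (log2 difference 0.60, limma adjusted p = 0.0415) and with SL0101-01 (0.81, limma adjusted p = 0.0073).

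Of 8 genes of haem breakdown, transport and chaperoning, 1 fell in Raptor KO and 5 rose in Tsc2 KO. No haem exporter was among them. Hmox1, the inducible haem oxygenase, was at 3.43 ± 4.24 in Raptor KO and 31.4 ± 18.7 in Raptor fl/fl (limma adjusted p = 0.0197), and at 34.1 ± 13.1 in Tsc2 KO and 6.74 ± 4.72 in Tsc2 fl/fl (limma adjusted p = 0.044). The biliverdin reductase gene Blvrb rose to 2032 ± 625 in Tsc2 KO, against 595 ± 312 in Tsc2 fl/fl (log2 difference 1.85, limma adjusted p = 0.0095). The haem-binding protein gene Hebp1 rose as well (2.07, limma adjusted p = 0.0088). With rapamycin 3 of 7 genes tested fell and none rose, among them Hmox1 (log2 difference -1.29, limma adjusted p = 0.0031) and Blvrb (-1.11, limma adjusted p = 7.8e-04). With SL0101-01 Hmox1 alone fell (-1.21, limma adjusted p = 0.0065).

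Of 11 regulators of haem synthesis none was called in Raptor KO, and 3 rose in Tsc2 KO. These were Aco1, the iron regulatory protein (log2 difference 1.24, limma adjusted p = 0.0040), Nfe2l2, the stress response factor (1.14, limma adjusted p = 0.0040), and the erythroid factor Gata1 (1.10, limma adjusted p = 0.047). Gata1 is also among the erythroid markers. Of 7 genes that supply succinyl-CoA and glycine, none was called in Raptor KO, 1 rose and 1 fell in Tsc2 KO, and 3 rose and 0 fell with each inhibitor. These 3 were Shmt1 and Shmt2, which make glycine from serine, and Suclg2, a subunit of a succinyl-CoA ligase, with log2 differences of 0.66, 0.80 and 0.71 with rapamycin and 1.09, 0.93 and 0.78 with SL0101-01 (limma adjusted p = 0.0387, 0.0022 and 0.0430 with rapamycin and 0.0013, 8.3e-04 and 0.0285 with SL0101-01).

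Fech needs an iron-sulphur cluster in mammals, and of 12 genes of cluster assembly 5 rose and 0 fell in Tsc2 KO and none was called in Raptor KO, while 2 rose with each inhibitor. None of 3 genes of haem a and haem c synthesis was called in either knockout or with either inhibitor. A list of haemoprotein genes of myeloid cells had 10 genes tested, among them Cyb5r3, which encodes a flavoprotein reductase without haem. None of the 10 was called in Raptor KO. In Tsc2 KO 2 rose, Cyb5r3 and Cyc1, and 1 fell, Tbxas1. With rapamycin 1 of the 10 rose and 2 fell, and with SL0101-01 2 rose and 1 fell. Mpo, the haem peroxidase of neutrophil granules, rose with rapamycin (log2 difference 2.67, limma adjusted p = 4.0e-11) and with SL0101-01 (1.42, limma adjusted p = 5.1e-07). In Tsc2 KO it was at 12377 ± 10836, against 41358 ± 15577 in Tsc2 fl/fl, and did not pass (log2 difference -2.02, limma adjusted p = 0.0515).

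Among 9944 genes with a mean of at least 10, those whose log2 levels were most like the synthase genes over the 12 GMP libraries were listed by Pearson's r, as a description of libraries that share groups and erythroid and myeloid content. For Alas1 they were Prss57 (0.997), Nkg7 (0.988), Ms4a3 (0.987), Cnn2 (0.987) and Mpo (0.986). For Alas2 they were Rad54l (0.959), the beta globin gene Hbb-b2 (0.945), Ilk (0.945), Cib1 (0.940) and Hbb-b1 (0.927). The lists had no gene in common.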

How the data were processed

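The deposited table gives 1 signal value per gene and library, a fragment count that the authors scaled by library. The submitters' processing notes list Cuffnorm, Cufflinks 2.2.1, TopHat2 2.0.10 and BWA. Read from the values, 98.9% to 99.1% of those above 0 in each library came out as whole multiples of a fixed step within 0.01, taken here as 1 fragment. The sources used here do not name the genome build. Because the values are no counts, limma took the place of the count test planned. Groups follow the sample titles, since the genotype field of the Tsc2 samples names Raptor.

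Values were taken as log2 of the value plus 1 and fitted in limma 3.58.1 (R 4.3.3, statmod 1.5.0) with an expression trend and robust moderation, for 12 GMP libraries in 4 groups, 6 Hoxb8 libraries in 3 groups, or all 18. All groups of a fit shared 1 estimate of the spread of a gene. For Alas1 the standard error was thus 0.261 in both knockout comparisons. Its SD was 35.3 in Raptor KO and 7.41 in Raptor fl/fl, against 118 in Tsc2 KO and 108 in Tsc2 fl/fl. The filter asked for a value of 1 or more in 3 GMP libraries, 2 Hoxb8 libraries or 2 of the 18. P-values were adjusted by Benjamini-Hochberg within each of 8 comparisons, at a threshold of 0.05. The test was checked on simulated data in which spread depended on level in the same way in every group. That check does not cover groups of unequal spread. All 8 enzymes passed the filter in every fit. The enzymes and gene lists were chosen with earlier results of these data known. The genes named are all 8 enzymes, up to 4 called members of a list by size of change, and the 5 genes most like each synthase gene. Transcript lengths and exon overlaps come from GENCODE vM21. Alternatives covered the scaling, filter, pseudocount, libraries in the fit, a replicate block, sex and, chosen after seeing the data, voom weights on the fragments.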

Additional observations from a re-analysis of the deposited data

Results flagged for a closer look

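The effects of the Raptor and Tsc2 knockouts on 6 enzymes differed by a test of the difference itself (limma, Raptor effect minus Tsc2 effect on the log2 scale). For Alas2 the difference was -2.97 (limma adjusted p = 0.0034), for Fech -2.30 (0.0069) and for Urod -1.77 (0.0011). It was -1.72 for Uros (limma adjusted p = 0.0316) and -1.67 for Alad (0.0126). For each of these genes the Raptor effect was lower than the Tsc2 effect. For Alas1 it was 1.22 (limma adjusted p = 0.0478), with a Raptor effect of -0.24 and a Tsc2 effect of -1.46. The difference of Alas2 came with a Raptor effect of -2.83 and a Tsc2 effect of 0.14, while for Fech the effects were -0.81, which did not pass, and 1.48. Groups here hold 3 libraries or fewer, so no test for a library far from the rest of its group was made.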

How the results depend on the processing

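Precision is limited by 2 or 3 libraries per group and, for Alas2 and Cpox in Hoxb8 cells, by 7 fragments or fewer per library. Count tests (edgeR or DESeq2 scaling and tests) were not run, because part of the deposited values could not be turned into whole fragments. Without 1 library each, 333 of the enzyme results kept their direction and side of the threshold, 13 gained a call, 29 lost one and 13 turned, and in the other settings 477 kept them, 27 gained, 7 lost and 9 turned. The cause was not tested.

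The count of genes called in Raptor KO was 522 as reported, 1249 with only the groups compared and 1142 with a replicate block, and of enzymes 2 as reported, 1 with a filter at 5, no filter, a pseudocount of 0.5 or voom, 5 with only the groups compared and 4 with the block. In Tsc2 KO 1638 genes became 471 with only the groups compared and 2499 with the block, and 3 enzymes became 1 and 6, with 7 under a term for sex and 5 without the male libraries. The difference between knockouts moved from 1646 genes to 2482 with the block, rapamycin against SL0101-01 from 1047 to 542 with only the groups compared and 1691 with the block, and Tsc2 fl/fl against Raptor fl/fl from 80 to 166, 169 with the block and 37 without the male libraries. Enzymes called went from 1 to 2 with the block for SL0101-01 and from 0 to 1 (filter at 5, voom) or 2 (block) for rapamycin against SL0101-01. After the group mean of each gene was subtracted, the deviations of same-numbered libraries correlated at 0.05, 0.07 and 0.02 in the Raptor line. They correlated at 0.37, 0.47 and -0.01 in the Tsc2 line and at 0.04 to 0.13 in Hoxb8 cells. With 2 libraries per Hoxb8 group both numbers give the same value by construction. By these deviations 6 of 6 Raptor-line and 4 of 6 Tsc2-line libraries correlated best with their own number, a hint from the data only. The labels give no shared source, so the numbers were not taken as pairs, although replicate 2 of both Tsc2 groups shares its sex. No paired analysis was possible for Hoxb8 cells against GMPs, because cell source and group coincide.

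Leaving out 1 library gave these ranges of genes and enzymes called: 146 to 402 and 1 to 1 in Raptor KO, 601 to 2498 and 3 to 7 in Tsc2 KO, 897 to 2519 and 4 to 8 for their difference, 540 to 1164 and 0 to 1 with rapamycin, 323 to 868 and 0 to 1 with SL0101-01, 128 to 863 and 0 to 1 between them, 5485 to 7204 and 7 to 7 for Hoxb8 cells against floxed GMPs, and 7 to 41 and 0 to 0 between floxed groups.

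Signs turned only for differences that had not passed. Without 1 library Alas2 in Tsc2 KO ranged from -0.24 (without Tsc2 fl/fl replicate 1) to 0.51, Urod with rapamycin from -0.21 (without rapamycin replicate 2) to 0.22 and Uros with SL0101-01 from -0.090 (without SL0101-01 replicate 1) to 0.61. Between rapamycin and SL0101-01 Uros ranged from -0.34 (without SL0101-01 replicate 2) to 0.36 and Cpox from -0.27 (without rapamycin replicate 2) to 0.97. With voom Urod with rapamycin came to -0.042 and Uros between the inhibitors to -0.019, and with quantile normalization Uros came to -0.084. Between Tsc2 fl/fl and Raptor fl/fl Alad, Uros and Fech came to -0.12, -0.28 and -0.0096 with a term for sex and to -0.24, -0.33 and -0.11 without the male libraries, and without 1 library ranged up to 0.39, 0.38 and 0.54.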
